A study of Mus musculus with 6 samples.

Results

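Muc3a, Fam107b, Corin, Clic6, Lgr5 and Bcar1 are 6 genes that were low in Purkinje cells (PCs) of mice with spinocerebellar ataxia type 1 (SCA1). They are 6 of the 32286 genes listed in each count table, and they were chosen because their levels in PCs were lower in SCA1 than in wild-type (WT) mice. Their difference in PCs is therefore described without a test, and the tests given concern other cell types and related genes. Their mean levels in all SCA1 PCs were 29.3% to 53.2% of those in WT PCs.

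Single nuclei RNA sequencing was done on the cerebellum of 3 SCA1 and 3 WT mice, all 12 weeks old, with 1 library per mouse. The SCA1 mice, strain Pcp2-ATXN1[82Q], have a human ATXN1 transgene whose CAG repeat is expanded, and WT littermates are the controls, all on a C57BL/6 background. The transgene is driven by the Pcp2 promoter, so that expression is directed to PCs, while every mouse keeps its own Atxn1 genes. CAG repeats change in length over generations, so that the repeat of these mice need not be as long as the strain name says. Levels below are unique molecular identifiers (UMIs, 1 per captured transcript) of a gene per 1000000 UMIs of the same cell type and mouse (CPM). CPM is not divided by gene length, so that only levels of the same gene are compared.

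PCs are the output neurons of the cerebellar cortex. In SCA1 the polyglutamine stretch encoded by the CAG repeat makes ATXN1 toxic to them, and mutant ATXN1, which binds the transcriptional repressor Capicua, is known to change PC transcription before PCs die. The 6 genes have different roles outside this context. Lgr5 encodes a receptor for R-spondins that strengthens Wnt signalling and is best known as a marker of intestinal stem cells. Corin encodes a membrane-bound serine protease that converts the precursor of atrial natriuretic peptide, and Bcar1 encodes the adaptor p130Cas, which links integrins and Src family kinases. Muc3a encodes a membrane mucin, Clic6 a member of the chloride intracellular channel family known from the choroid plexus, and Fam107b a small protein of the FAM107 family.

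Each library had between 18916647 and 98366627 UMIs in between 3354 and 10897 nuclei (45473 nuclei altogether), and the shallowest median was 2246.5 UMIs per nucleus in WT mouse 2. Of these nuclei, 292 carried the Purkinje label, 146 per genotype, with 65, 52 and 29 from SCA1 mice 1 to 3 in order and 76, 41 and 29 from the WT mice in the same order. The 6 Purkinje markers (Pcp2, Calb1, Car8, Ppp1r17, Itpr1 and Slc1a6) summed to 11712 to 19147 CPM in these nuclei and to 290.0 to 2062 CPM in granule neurons. A barcode was shared by 2 libraries 254 times, and 3 Purkinje-labelled nuclei carried such a barcode. Human ATXN1 was listed with 46 UMIs in SCA1 PCs and with none in the 146 WT PC nuclei. The share of WT PC nuclei with a UMI could thus be as high as 2.05%, a limit for counting error that leaves out the difference between mice. In granule neurons, human ATXN1 was listed at 0.394 to 1.12 CPM in the WT mice, which lack the transgene, and at 0.537 to 1.23 CPM in the SCA1 mice.

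The genes lie on 5 chromosomes of the mouse genome GRCm38 (GENCODE M21), each of them as a protein coding gene. Fam107b spans chr2:3570488-3782142 on the plus strand and Clic6 chr16:92485736-92541243 on the plus strand. Corin, at chr5:72300025-72504473, Bcar1, at chr8:111710474-111743809, and Lgr5, at chr10:115450311-115587780, are on the minus strand. Muc3a is a short model of 3577 bases at chr5:137208813-137212389 on the minus strand, and none of the 1857 distinct stretches of 31 bases in its transcripts occurred in the transcripts of another gene. An antisense gene, Gm20647, overlaps 51695 bases of Corin, and the sources used here do not say how UMIs of a stretch with genes on both strands were counted. The same limit holds for A930009A15Rik, a protein coding gene that overlaps 12463 bases of Lgr5 on the opposite strand, and for the antisense gene Gm13185, which overlaps 2192 bases of Fam107b. On their own strands, Clic6 overlaps 11631 bases of 2410124H12Rik and Corin 905 bases of AU023070. The sources do not say either to which gene UMIs of these stretches on the same strand were counted.

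RefSeq promoters (GRCm38.p6, 250 bases before to 50 after a transcription start, which is base 251 of each) were matched for 3 of the genes and are shown because the 3 genes were low together in SCA1 PCs. The CG dinucleotides are in capitals. The first is chr2:3713208-3713507 on the plus strand, the second chr5:72504491-72504790 and the third chr8:111743800-111744099, both on the minus strand.
Fam107b: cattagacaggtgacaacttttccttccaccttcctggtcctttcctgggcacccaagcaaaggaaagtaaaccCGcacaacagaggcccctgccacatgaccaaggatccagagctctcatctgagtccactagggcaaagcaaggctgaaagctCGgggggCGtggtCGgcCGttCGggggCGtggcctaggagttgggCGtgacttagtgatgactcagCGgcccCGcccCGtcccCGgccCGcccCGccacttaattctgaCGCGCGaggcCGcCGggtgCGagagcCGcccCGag
Corin: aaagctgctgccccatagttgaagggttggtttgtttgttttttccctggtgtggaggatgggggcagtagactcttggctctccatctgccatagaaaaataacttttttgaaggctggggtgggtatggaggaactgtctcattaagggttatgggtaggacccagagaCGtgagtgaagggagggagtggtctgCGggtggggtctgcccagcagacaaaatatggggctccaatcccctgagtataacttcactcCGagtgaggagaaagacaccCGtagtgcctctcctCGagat
Bcar1: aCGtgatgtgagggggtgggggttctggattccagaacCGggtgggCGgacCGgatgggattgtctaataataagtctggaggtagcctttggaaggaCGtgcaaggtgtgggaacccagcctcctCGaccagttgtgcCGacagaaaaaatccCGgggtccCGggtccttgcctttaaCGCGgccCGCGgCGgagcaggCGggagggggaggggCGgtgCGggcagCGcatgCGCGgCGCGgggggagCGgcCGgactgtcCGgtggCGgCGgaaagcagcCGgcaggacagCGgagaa

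The promoters of Fam107b and Bcar1 held 22 and 29 CG dinucleotides at 63.3% and 66.7% GC, and that of Corin held 5 at 51.7% GC. The median of all 32851 RefSeq promoters of this length was 7 CG dinucleotides and 52.7% GC, so that Corin was near the median and both others were above it. A second listed Bcar1 start, chr8:111732087-111732386 on the minus strand, held 30. The Fam107b window lies within the gene as annotated, downstream of its first base at chr2:3570488, so that its values are those of an internal start. The octamer bound by Capicua (TGAATGAA, TGAATGGA, TCAATGAA or TCAATGGA, on either strand) were in none of the 4 windows and in 3.84% of all promoters. The TATA box TATAAA, in 13.6% of all promoters, and the nuclear receptor element AGGTCA, in 16.3%, were not in these windows either.

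In PCs all 6 genes were lower in SCA1, as they were chosen to be, and for none did the levels of the 3 SCA1 mice overlap those of the 3 WT mice. The share of all genes without such an overlap was not counted. Non-overlap of SCA1 and WT mice is therefore not read as a result, here or below. edgeR's quasi-likelihood fit across all 9821 genes tested in PCs called 0.0% of them at an adjusted p of at most 0.05 (0 genes, with 653 or 6.65% at an unadjusted p below 0.05), and DESeq2 called 66 of 8488 or 0.778%. Both shares include these genes, which were picked from this comparison, and nothing is read from them. The fitted log2 fold changes of the 6 genes ran from -1.95 to -1.07, while 5% of all genes tested were below -0.64 and the median of all was 0.02.

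Lgr5, the R-spondin receptor, was at 25.7, 51.8 and 37.2 CPM in the PCs of SCA1 mice 1 to 3 (always given in this order) and at 78.7, 115 and 165 CPM in those of WT mice 1 to 3. Its mean over 3 SCA1 mice was 38.2 ± 13.1 CPM and over 3 WT mice 119 ± 43.4 CPM (each ± SD, n = 3), a fitted log2 fold change of -1.84 ± 0.24 (SE). The highest SCA1 value, of mouse 2, was below the lowest WT value, of mouse 1. The SD in CPM was larger in the WT mice, whose mean was larger as well.

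Corin, the protease of natriuretic peptide precursors, was at 100.01, 50.0 and 132 CPM in the SCA1 mice and at 168, 137 and 224 CPM in the WT mice. The gap between the groups was the narrowest of the 6, between SCA1 mouse 3 and WT mouse 2. In SCA1 mouse 2, which was the lowest of its group, a single nucleus held 38.9% of the 54 UMIs. The fitted log2 fold change was -1.07 ± 0.35 (SE), from means of 93.9 ± 41.2 CPM in SCA1 and 176 ± 44.2 CPM in WT (SD, n = 3 each).

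Bcar1, the scaffold of integrin signalling, was at 141, 145 and 138 CPM in the SCA1 mice and at 252, 300.2 and 319 CPM in the WT mice. The SCA1 mice were nearly level, with an SD of 3.70 CPM around a mean of 141 CPM, 48.7% of the WT mean of 290.4 ± 34.2 CPM (SD, n = 3 each). Its fitted log2 fold change was -1.21 ± 0.19 (SE).

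Muc3a, the membrane mucin, was at 50.6, 42.6 and 22.9 CPM in the SCA1 mice and at 179, 152 and 64.6 CPM in the WT mice. WT mouse 3 was far below the other WT mice and still above every SCA1 mouse. The fitted log2 fold change of Muc3a was -1.95 ± 0.31 (SE), with means of 38.7 ± 14.3 CPM for SCA1 and 132 ± 59.8 CPM for WT (SD, n = 3 each).

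Clic6, of the chloride intracellular channel family, was at 35.6, 69.4 and 39.5 CPM in the SCA1 mice and at 109, 121 and 169 CPM in the WT mice, a fitted log2 fold change of -1.69 ± 0.25 (SE). SCA1 mouse 2 was the highest of its group here, as it was for Lgr5, but the lowest for Corin. Among the PCs of all 6 mice, SCA1 mouse 1 also held the most RNA of the choroid plexus, with 161 CPM of the marker Ttr against 0 to 18.8 CPM in the other 5 mice, and its part in the level of Clic6 was not tested.

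Fam107b was at 260.5, 283 and 509 CPM in the SCA1 mice and at 733, 941 and 1077 CPM in the WT mice. In SCA1 mouse 3, which was the highest of its group, a single nucleus held 30.6% of the 889 UMIs, against 3.58% to 14.4% in the nucleus with the most in each WT mouse. The fitted log2 fold change was -1.57 ± 0.27 (SE), from means of 351 ± 137 CPM in SCA1 and 917 ± 173 CPM in WT (SD, n = 3 each).

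**Figure D1:**
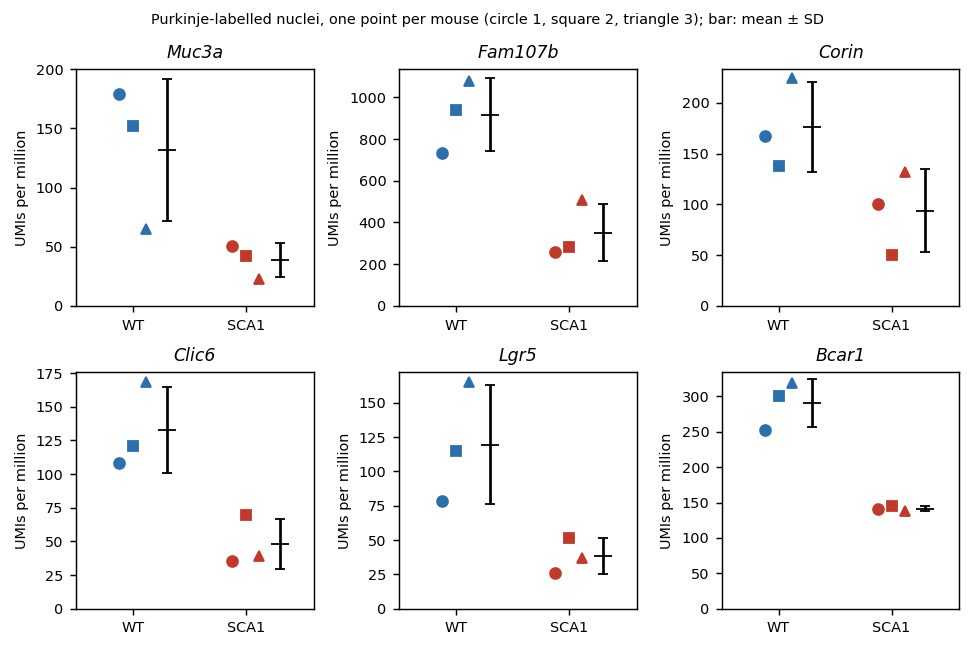
Levels of the 6 genes in Purkinje-labelled nuclei, in UMIs per 1000000 (y axis), for WT and SCA1 mice (x axis), with 1 point per mouse and the mean ± SD beside the points. In every panel the 3 SCA1 mice lie below the 3 WT mice, with the narrowest gap for Corin, between 132 and 137 CPM.

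The share of PC nuclei with a UMI depends on depth. At full depth, a UMI of Muc3a was found in 23.8% ± 2.52 of the PC nuclei of SCA1 mice and in 74.6% ± 8.34 of those of WT mice (SD, n = 3 each), while a UMI of Bcar1 was found in 86.9% ± 13.5 and 87.3% ± 7.73. With each nucleus thinned at random to 5000 UMIs (shallower nuclei left out), a UMI of Bcar1 was found in 73.0%, 79.4% and 80.0% of the WT nuclei of the 3 mice, in 41.8%, 60% and 47.1% of the SCA1 nuclei without and in 30.0%, 40.0% and 27.3% of those with a UMI of human ATXN1, so that the like shares at full depth do not hold at equal depth. The same share in granule neurons, whose median was 5923 UMIs per nucleus against 36466.5 in PCs, was 0.534% in SCA1 and 0.817% in WT mice for Muc3a, and 18.3% and 20.5% for Bcar1.

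Markers of other cell types were also counted in the PC nuclei. The 4 granule neuron markers summed to 25.8 to 139 CPM in SCA1 and 20.5 to 233 CPM in WT PCs, the 3 oligodendrocyte markers to 22.3 to 109 and 16.9 to 130 CPM, the 3 Bergmann glia markers to 17.2 to 75.0 and 50.3 to 96.6 CPM, and the 3 microglia markers to 17.8 to 62.9 and 21.3 to 28.9 CPM. These ranges overlapped between SCA1 and WT for each of the 4 lists, and no marker of these lists was at 0 over all 6 mice. The 6 Purkinje markers summed to 11712 to 14825 CPM in SCA1 and to 15903 to 19147 CPM in WT PCs, which did not overlap, and the SCA1 mean was 71.4% of the WT mean for Car8, 74.5% for Itpr1 and 91.9% for Slc1a6.

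Within the SCA1 mice, a UMI of human ATXN1 was found in 10 of 65, 10 of 52 and 11 of 29 PC nuclei (hATXN1+ PCs). The other 115 nuclei, which may express the transgene without a captured UMI, are called hATXN1- PCs. Human ATXN1 was also listed in granule neurons of WT mice, and the part of such background in the hATXN1+ class was not tested. The 6 genes were lower still in hATXN1+ than in hATXN1- PCs, in every SCA1 mouse for 5 of them and in 2 of 3 mice for Clic6. No test is given, since these are nuclei of the comparison the genes were chosen from.

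In hATXN1+ PCs the mean levels were 2.08% of the WT mean for Muc3a, 4.91% for Fam107b, 5.96% for Corin, 8.08% for Lgr5, 17.2% for Clic6 and 34.0% for Bcar1. Muc3a was at 2.36, 2.98 and 2.88 CPM in the hATXN1+ PCs of the 3 mice and at 60.3, 60.4 and 36.1 CPM in their hATXN1- PCs. This level rests on 4 UMIs of 1452579 over the 3 mice, which is 2.75 CPM with an exact Poisson 95% interval of 0.750 to 7.05 CPM, against 53.8 CPM (46.8 to 61.6) in hATXN1- and 150.1 CPM (140 to 161) in WT PCs. Corin was at 9.45, 14.9 and 7.21 CPM in hATXN1+ and at 118, 65.8 and 214 CPM in hATXN1- PCs. Summed over the mice it was at 9.64 CPM (5.27 to 16.2) in hATXN1+, 134 CPM (123 to 146) in hATXN1- and 175 CPM (164 to 187) in WT PCs. These intervals cover counting error only and leave out the difference between mice.

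Fam107b was at 33.1, 32.8 and 69.2 CPM in the hATXN1+ PCs of the 3 mice and at 306, 396 and 798 CPM in their hATXN1- PCs. In SCA1 mouse 3 its hATXN1- PCs were above the lowest WT mouse, at 733 CPM. With nuclei thinned to 5000 UMIs they were at 588 CPM, below the WT mice at 749 to 1041 CPM. Lgr5 was at 14.2, 11.9 and 2.88 CPM in hATXN1+ and at 28.0, 69.8 and 59.8 CPM in hATXN1- PCs. Its level summed over the mice was 8.26 CPM (4.27 to 14.4, exact Poisson 95% interval) in hATXN1+ against 44.6 CPM (38.2 to 51.7) in hATXN1- PCs.

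Bcar1 and Clic6 differed less between both classes. Bcar1 was at 104, 95.3 and 96.6 CPM in hATXN1+ and at 148, 168 and 165 CPM in hATXN1- PCs, and its mean in hATXN1- PCs, 160 ± 10.7 CPM (SD, n = 3), was 55.2% of the WT mean. Clic6 was at 11.8, 14.9 and 41.8 CPM in hATXN1+ and at 40.4, 94.0 and 38.0 CPM in hATXN1- PCs, so that in SCA1 mouse 3 the hATXN1+ PCs were no lower.

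**Figure D2:**
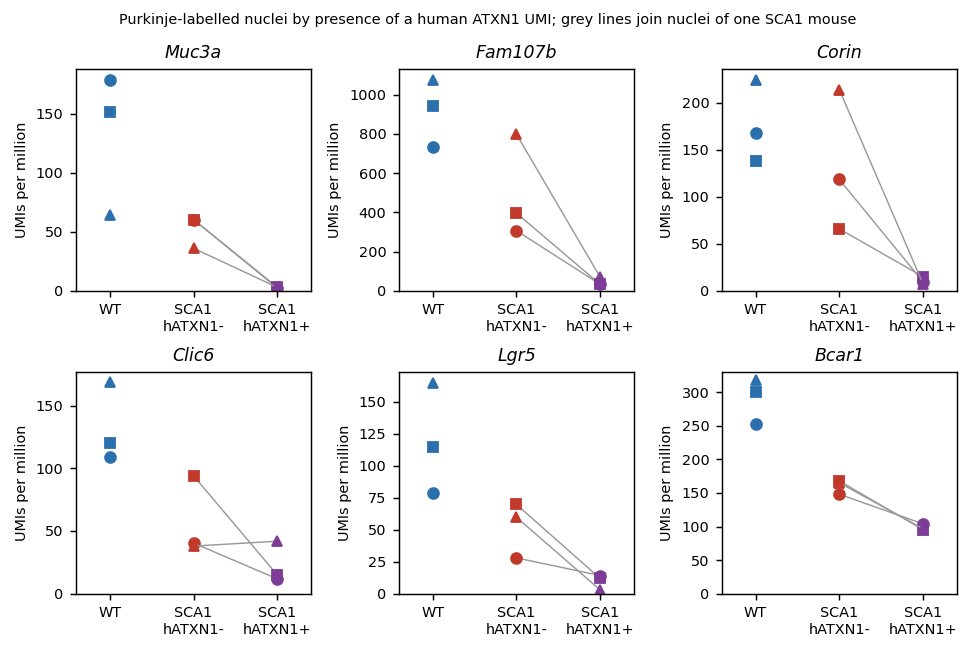
Levels in UMIs per 1000000 (y axis) in PC nuclei of WT mice and in SCA1 PC nuclei without (hATXN1-) and with (hATXN1+) a UMI of human ATXN1 (x axis), with grey lines joining both classes of one mouse. The lines of Muc3a, Corin, Fam107b, Lgr5 and Bcar1 fall from hATXN1- to hATXN1+ in all 3 SCA1 mice, and the line of Clic6 in SCA1 mouse 3 does not fall.

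The ratio of hATXN1+ to hATXN1- levels, each as a mean over the 3 mice, was 0.05 for Muc3a, 0.08 for Corin, 0.09 for Fam107b, 0.18 for Lgr5, 0.40 for Clic6 and 0.61 for Bcar1. Over the 5570 genes with a mean of at least 20 CPM in WT PCs, the median ratio was 1.08 and 90% of the genes lay between 0.68 and 1.52. The 6 genes were chosen on SCA1 PCs that include these nuclei, and their place among all genes is not read as support. With each nucleus thinned to 5000 UMIs the ratio was 0.13 for Corin, 0.17 for Fam107b, 0.27 for Lgr5, 0.64 for Clic6 and 0.50 for Bcar1. No UMI of Muc3a was left in the 31 thinned hATXN1+ nuclei, which allows a level of up to 19.4 CPM (3 counts over the 155000 UMIs of the class, counting error only) against 44.1 CPM in hATXN1- PCs, a ratio of up to 0.44. The ratio of Clic6 was 0.20 without SCA1 mouse 3 and 0.68 without SCA1 mouse 2, that of Corin 0.13 without SCA1 mouse 3 and 0.05 without SCA1 mouse 2, and that of Lgr5 0.11 without SCA1 mouse 1. Of the Purkinje markers, Itpr1 (ratio 0.74) and Car8 (0.76) had lower means in hATXN1+ PCs, and Calb1 (1.04), Slc1a6 (1.05), Ppp1r17 (1.13) and Pcp2 (1.20) did not. The sum of the markers was 10903 to 11591 CPM in hATXN1+ and 12002 to 16953 CPM in hATXN1- PCs (ratio 0.80). Itpr1 made up most of this sum, with means of 7064 and 9607 CPM of 11187 and 14062 CPM, so that the sum does not stand for all 6 markers. The part of this difference in the ratios of the 6 genes was not tested. The granule neuron markers summed to 27.4 to 71.5 CPM in hATXN1+ and 24.7 to 153 CPM in hATXN1- PCs, and the oligodendrocyte markers to 21.6 to 111 and 22.8 to 109 CPM.

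The hATXN1+ PCs were the deeper class in every SCA1 mouse, most of all in mouse 2: the median was 41307, 34274.5 and 58288 UMIs in the hATXN1+ PCs of the 3 mice and 37282, 7287.5 and 56243.5 UMIs in their hATXN1- PCs. Each nucleus was therefore also thinned to 5000 UMIs, which left out 13 of the 115 hATXN1-, 0 of the 31 hATXN1+ and 18 of the 146 WT nuclei. At this depth the mean number of the 6 genes with a UMI was 3.29 ± 0.16 in WT, 1.75 ± 0.25 in hATXN1- and 0.84 ± 0.15 in hATXN1+ PCs (SD, n = 3 mice each). After thinning, the levels of Lgr5 and Clic6 were lower in hATXN1+ PCs in 2 of 3 mice each, with Lgr5 at 40.0 against 21.8 CPM and Clic6 at 40.0 against 36.4 CPM in SCA1 mouse 1, and no UMI of Muc3a was found in hATXN1+ PCs. Before thinning, the mean number was 4.10 to 4.87 genes in the WT mice, 2.36 to 3.72 in hATXN1- and 2.30 to 3.00 in hATXN1+ PCs.

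A UMI of at least 4 of the 6 genes was held by 51 of 128 thinned WT nuclei, or 39.8%, by 14 of 102 hATXN1- nuclei, or 13.7%, and by 0 of 31 hATXN1+ nuclei, where 3 counts of 31 would be 9.68%, a limit for counting error that leaves out the difference between the 3 mice. None of the 6 was found in 1 WT, 23 hATXN1- and 10 hATXN1+ nuclei. In the hATXN1- PCs the nuclei were spread widely, since 22 of the 102 held at least 8 UMIs of the 6 genes together, the median of the WT nuclei, and the highest held 19. No hATXN1+ nucleus held more than 3.

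**Figure D3:**
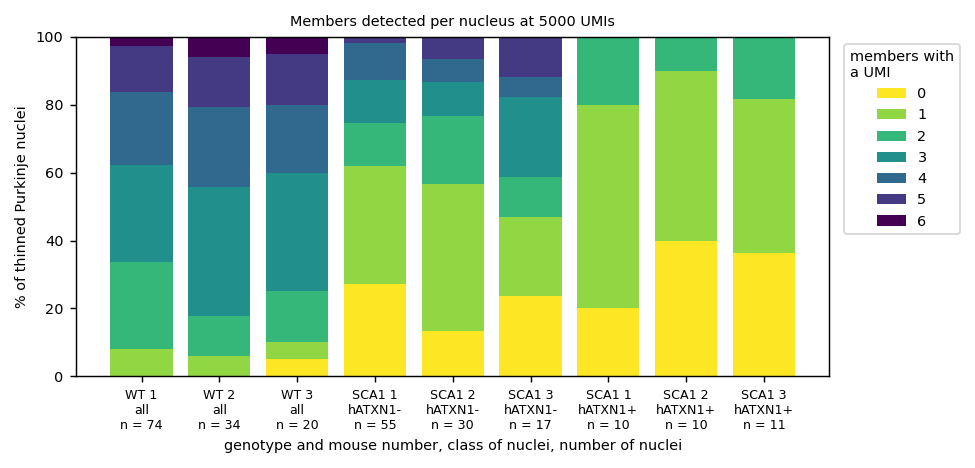
Percent of PC nuclei (y axis) by the number of the 6 genes with a UMI, 0 to 6 (colours), after thinning to 5000 UMIs, for each mouse and class of nuclei (x axis). No hATXN1+ bar reaches beyond 2 genes, while hATXN1- bars span 0 to 5 and WT bars reach 6.

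Some pairs of the 6 genes varied together from nucleus to nucleus in SCA1 PCs and others did not. Over the 15 pairs, r ran from 0.06 to 0.58 in SCA1 and from -0.08 to 0.29 in WT PCs. Across the 146 SCA1 nuclei, with levels centred within each mouse, Pearson's r of log2(1 + UMIs per 10000) was 0.58 for Fam107b with Corin and 0.52 for Muc3a with both Fam107b and Lgr5. Across the 146 WT nuclei the same pairs had r = 0.27, 0.14 and 0.18. Muc3a and Corin were the pair with the lowest r in WT, -0.08, and had r = 0.23 in SCA1. Corin with Clic6, the lowest pair in SCA1, had r = 0.06 against 0.14 in WT, and r was about the same in SCA1 and WT for Clic6 with Bcar1 (0.14 and 0.12) and for Corin with Lgr5 (0.23 in both). The nuclei of a mouse share its library and differ in depth, and nuclei are no replicates, so that these values are descriptions.

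In WT mice each of the 6 genes was highest in PCs among the 11 cell types with at least 20 nuclei in every mouse, and the range of the WT mice in PCs did not overlap that of the next type. The share of all genes for which this held was not counted. The 6 genes were also chosen on their PC levels, so that this is a description and not a result about them. The genes differed in the types that came after PCs. Corin was at 176 ± 44.2 CPM in WT PCs and at 2.10 ± 2.43 CPM (SD, n = 3) in the Pvalb-Chrm2 interneurons that came next, and Clic6 was at 133 ± 31.8 CPM in PCs and at 3.43 ± 0.53 CPM in Slc17a6-Nrgn neurons. Muc3a was next at 6.33 ± 4.48 CPM in Pvalb-Chrm2 interneurons. In these 3 genes each type after PCs overlapped the next type in the order of means in the WT mice.

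Fam107b, Lgr5 and Bcar1 were found in other cell types as well. Fam107b was at 104 ± 8.64 CPM in Pvalb-Rab3b interneurons and at 91.4 ± 19.2 CPM in Pvalb-Cadm1 interneurons, whose ranges overlapped, and Slc17a6-Nrgn neurons were last with 6.10 ± 8.07 CPM. Lgr5 was at 33.7 ± 10.5 CPM in Pvalb-Chrm2 interneurons and at 33.6 ± 12.7 CPM in granule neurons, and Bcar1 at 82.4 ± 10.8 CPM in oligodendrocytes, 63.6 ± 4.45 CPM in Bergmann glia and 41.2 ± 4.17 CPM in velate astrocytes (SD, n = 3 each). Bcar1 in oligodendrocytes did not overlap Bergmann glia, nor Bergmann glia velate astrocytes.

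Clic6 was also found in nuclei with the choroid plexus label, which number 5 to 27 per mouse and were not tested. Its level there was 381, 7.93 and 0 CPM in the 3 SCA1 mice and 23.1, 362 and 456 CPM in the 3 WT mice. Both genotypes thus held a mouse with a high and a mouse with a low level, and the 3 choroid plexus markers (Ttr, Folr1 and Kl) ran from 0 to 14501 CPM in the SCA1 mice and from 80.8 to 9192 CPM in the WT mice.

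**Figure D4:**
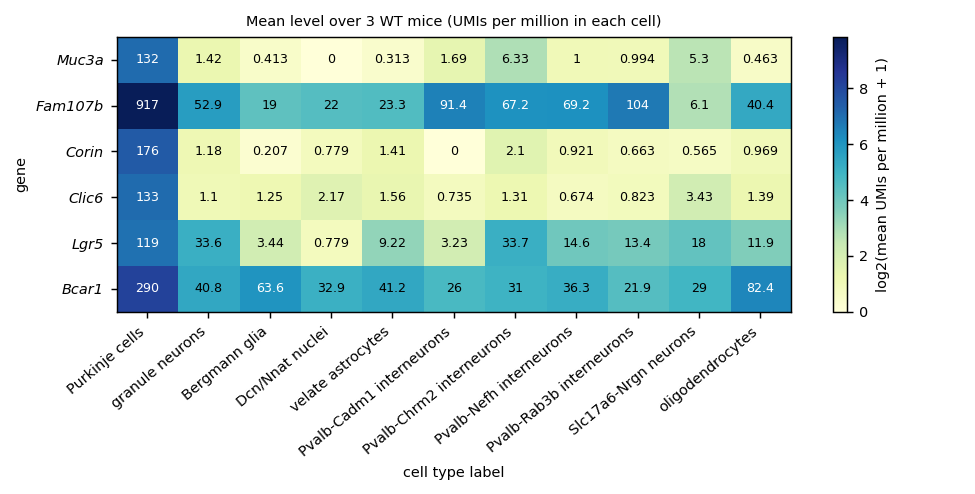
Mean level over the 3 WT mice in UMIs per 1000000 (number in each field) of the 6 genes (y axis) in 11 cell types (x axis), coloured by log2(mean + 1). The Purkinje column is the highest in every row of these genes, which were chosen on their PC levels. Bcar1, Fam107b and Lgr5 keep levels above 10 CPM in several other columns.

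Levels in 9 cell types were tested against granule neurons of the same 6 mice with edgeR. The call rate is high in such comparisons. Of all genes tested, 26.9% were called higher and 31.7% lower in Bergmann glia, 26.2% and 28.2% in velate astrocytes, 22.6% and 30.6% in oligodendrocytes, 26.7% and 33.7% in Slc17a6-Nrgn neurons, and 21.4% and 26.9% in the nuclei labelled by Dcn and Nnat. In the interneurons these shares were 17.4% and 21.2% for Pvalb-Cadm1, 22.8% and 24.1% for Pvalb-Chrm2, 22.5% and 29.2% for Pvalb-Nefh and 16.3% and 19.3% for Pvalb-Rab3b. Of 34 tests of the 6 genes that passed the count filter, 8 were called higher, 18 lower and 8 were not called. The filter was applied to both types of a comparison together. A gene could therefore pass it through granule neurons without passing on the counts of the other type alone, and these counts of calls are not read as a result. Corin passed the filter in none of the 9 types.

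Lgr5 was lower than in granule neurons in Slc17a6-Nrgn neurons (log2 fold change -1.02 ± 0.22, SE, edgeR adjusted p = 0.00177), Pvalb-Nefh interneurons (-1.26 ± 0.15, adjusted p = 5.3e-05) and oligodendrocytes (-1.56 ± 0.21, adjusted p = 0.000126), in all 6 mice each. It was also called lower in Bergmann glia, velate astrocytes, Pvalb-Cadm1 and Pvalb-Rab3b interneurons and the nuclei labelled by Dcn and Nnat. The last held 1 UMI of Lgr5 in the SCA1 and 1 in the WT mice, against 439 to 1867 UMIs in the granule neurons of each mouse. On the counts of these types alone Lgr5 did not pass the filter. It was tested there through granule neurons, where it was high, so that no fold is given and nothing is read from these calls. In Pvalb-Chrm2 interneurons it was at 41.7 ± 14.4 CPM against 33.5 ± 9.80 CPM (SD, n = 6 mice), which was not called (adjusted p = 0.235) and was called without WT mouse 3 (adjusted p = 0.0364).

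Fam107b was higher than in granule neurons in Pvalb-Rab3b (log2 fold change 0.75 ± 0.10, SE, edgeR adjusted p = 2.1e-05), Pvalb-Cadm1 (0.73 ± 0.13, adjusted p = 0.000152) and Pvalb-Nefh interneurons (0.42 ± 0.11, adjusted p = 0.00903). It was called lower in 5 types, most in Slc17a6-Nrgn neurons with -2.74 ± 0.24 (adjusted p = 1.0e-06), then in the nuclei labelled by Dcn and Nnat, in Bergmann glia, in velate astrocytes and in oligodendrocytes. On the counts of the nuclei labelled by Dcn and Nnat alone Fam107b did not pass the filter, and that call is not read as a result. The direction of Fam107b in Pvalb-Chrm2 interneurons, not called at -0.08, turned to 0.02 without SCA1 mouse 2 and to 0.04 without SCA1 mouse 3.

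Bcar1 was higher in oligodendrocytes (log2 fold change 1.06 ± 0.13, SE, edgeR adjusted p = 8.8e-05) and in Bergmann glia (0.74 ± 0.11, adjusted p = 0.000287), in 6 of 6 mice each. It was lower in Slc17a6-Nrgn neurons (-0.46 ± 0.11, adjusted p = 0.00445). Lower calls in 4 more types were lost on leaving out single mice: SCA1 mouse 1, SCA1 mouse 2 or WT mouse 3 for the nuclei labelled by Dcn and Nnat (adjusted p = 0.0694 to 0.0745), SCA1 mouse 1, SCA1 mouse 3, WT mouse 2 or WT mouse 3 for Pvalb-Cadm1 interneurons (0.0564 to 0.0850), WT mouse 2 or WT mouse 3 for Pvalb-Rab3b interneurons (0.0677 to 0.0790) and any of the 6 mice for Pvalb-Nefh interneurons (0.0685 to 0.209).

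Muc3a was higher in Slc17a6-Nrgn neurons, with 4.61 ± 3.49 CPM against 1.12 ± 0.74 CPM in granule neurons (log2 fold change 2.25 ± 0.35, SE, edgeR adjusted p = 0.000159), and in Pvalb-Chrm2 interneurons, with 5.11 ± 3.36 CPM (2.03 ± 0.43, adjusted p = 0.00113, SD over 6 mice). The call in Pvalb-Chrm2 interneurons rests on 15 UMIs in the SCA1 and 10 in the WT mice. On the counts of these interneurons alone Muc3a did not pass the filter, and that call is not read as a result. Clic6 was called higher in Slc17a6-Nrgn neurons, with 3.45 ± 1.45 CPM against 1.27 ± 1.36 CPM (1.38 ± 0.45, adjusted p = 0.0181). It had 44 UMIs there in the SCA1 and 21 in the WT mice and did not pass the filter on the counts of these neurons alone, so that this call is not read as a result either. The levels of both genes in these neurons were far below those in PCs of either genotype.

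SCA1 was compared with WT in the 10 cell types other than PCs, to see whether the 6 genes were lower outside the cells to which the transgene is directed. None of 28 tests of the 6 genes was called by edgeR, and 3 had an unadjusted p below 0.05, beside 0.807% to 2.22% of all genes tested in each of these types. DESeq2 called none of them either. The share called among all genes was as low, since edgeR called 1 of 17656 genes or 0.00566% in granule neurons, 1 of 10900 or 0.00917% in oligodendrocytes and 0.0% in the other 8 types. In granule neurons it was 0.0897% with DESeq2, 0.034% with the replicate number as a block and 0.00738% with no filter. An adjusted p above the threshold does not show that a level was unchanged.

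In granule neurons Fam107b was at 44.6, 37.0 and 43.6 CPM in the 3 SCA1 mice and at 56.4, 50.3 and 52.0 CPM in the 3 WT mice. These values did not overlap, with a log2 fold change of -0.37 ± 0.17 (SE, edgeR adjusted p = 1.00). The fitted fold change of Fam107b was below 0 in all 9 types in which it passed the filter, from -0.85 in Pvalb-Chrm2 to -0.05 in Pvalb-Nefh interneurons, whereas 49.2% to 51.6% of all genes tested were below 0 in these types. The types share the same 6 mice, so that the 9 values are not independent, and 1 of the 9, in Pvalb-Rab3b interneurons, had an unadjusted p below 0.05 (0.0270, adjusted p = 1.00). The mean sum of the 6 Purkinje markers was also lower in SCA1 than in WT mice in each of these 9 types, from 300.2 against 586 CPM in Pvalb-Chrm2 interneurons to 812 against 1266 CPM in velate astrocytes, and its part in the values of Fam107b was not tested. The fitted fold change of Bcar1 was below 0 in 6 of 10 types and that of Lgr5 in 4 of 5. In Pvalb-Chrm2 interneurons Lgr5 was above 0, at 0.66 ± 0.34 (SE), and not called.

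Corin in granule neurons was at 0.813, 0.376 and 0.458 CPM in the SCA1 mice and at 1.87, 1.19 and 0.491 CPM in the WT mice, a log2 fold change of -1.07 ± 0.38 (SE, edgeR adjusted p = 1.00). Bcar1 had -0.33 ± 0.14 and Muc3a -0.68 ± 0.52 in granule neurons (adjusted p = 1.00 each). Mice were also matched by number, which was assumed and not shown to pair them. Fam107b, Corin and Bcar1 were lower in the SCA1 mouse of all 3 pairs and Muc3a in 2 of 3. The share of all genes that were lower in all 3 pairs was not counted, and nothing is read from these counts. Corin in mice 3 was nearly level, at 0.458 CPM from 18 UMIs in SCA1 and 0.491 CPM from 10 UMIs in WT. With the replicate number as a block the edgeR adjusted p was 0.410 for Fam107b, 0.546 for Bcar1, 0.842 for Corin and 0.882 for Muc3a. Clic6 had -0.32 ± 0.60 and Lgr5 -0.02 ± 0.29, and both changed sign under alternatives. For Lgr5 the fitted fold change was 0.22 without SCA1 mouse 2 and 0.30 without WT mouse 3, and for Clic6 it was 0.17 and 0.18 without the same mice.

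PC transcripts were counted in granule neurons in amounts that differed between libraries. The summed level of the 6 Purkinje markers in granule neurons was 290.0 to 1120 CPM in the SCA1 and 548 to 2062 CPM in the WT mice, and Pcp2 in granule neurons was 13.3% to 58.2% of its level in PCs of the same mouse. The other Purkinje markers were at 1.09% to 5.47% (Itpr1), 3.26% to 9.04% (Slc1a6), 2.05% to 18.1% (Car8), 3.90% to 21.4% (Ppp1r17) and 6.61% to 43.9% (Calb1). Fam107b in granule neurons was 4.83% to 7.69% of its level in PCs in the WT mice and 8.57% to 17.1% in the SCA1 mice. It was higher than some of these markers and lower than others. Muc3a in granule neurons was 0.456% to 1.31% of its level in PCs in the WT and 1.69% to 3.22% in the SCA1 mice. Corin was at 0.219% to 1.12% and 0.348% to 0.813%. The genes were chosen for low levels in SCA1 PCs, which raises such a percentage in the SCA1 mice. Lgr5 in granule neurons was 26.9% to 28.8% of its level in PCs in the WT mice and 56.8% to 117% in the SCA1 mice, so that both cell types held like levels of it in SCA1 mice 1 and 3. Clic6 reached 10.6% in SCA1 mouse 1, where it was at 3.79 CPM in granule neurons against 0.254 to 1.83 CPM in the other 5 mice. The part of PC and choroid plexus RNA in the granule neuron levels was not tested.

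**Figure D5:**
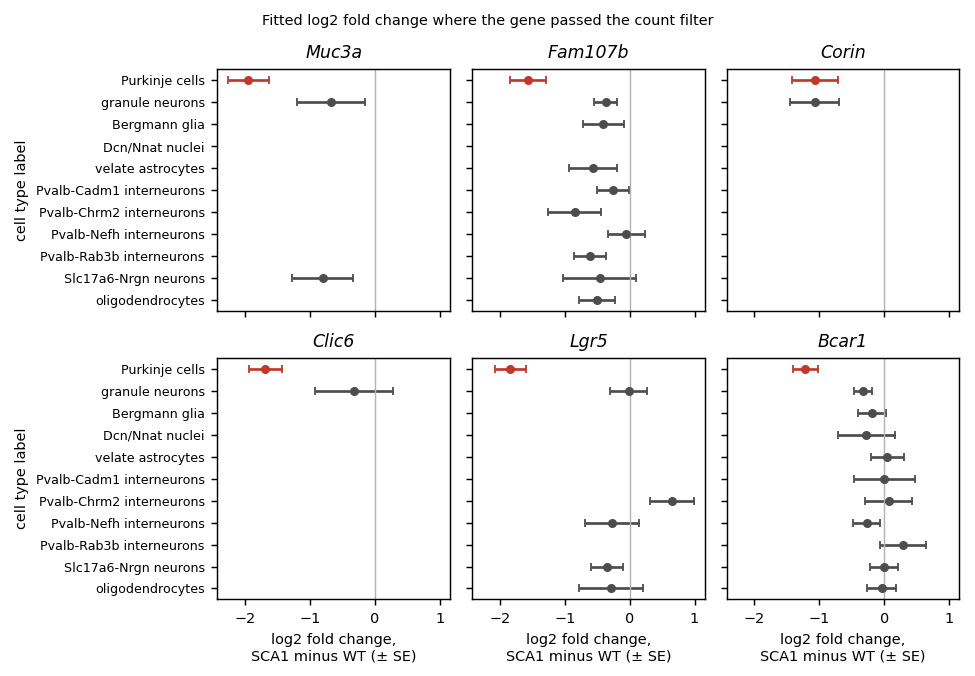
Fitted log2 fold change, SCA1 minus WT (x axis, bars ± SE), of each gene in each cell type (y axis) in which it passed the count filter, with PCs in red. The PC values lie between -1.95 and -1.07, Fam107b is below 0 in every type shown, and Corin is at -1.07 in both PCs and granule neurons.

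Relatives and partners of the 6 genes were followed as 50 listed genes, of which 17 passed the count filter in PCs. None of the 17 was called by edgeR (0.0% of all genes were), 3 had an unadjusted p below 0.05 and 13 had a fitted fold change below 0, beside 47.4% of all genes tested. The median log2 fold change of the 17 was -0.20, against 0.02 over all genes tested. Where groups of mice did not overlap for a listed gene, lower or higher, the share of all genes for which this held was not counted. Non-overlap is thus a description of these genes and not a result about them.

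Of the 8 genes of the natriuretic peptide pathway around Corin, 5 passed the filter, with a median of -0.61. The peptide precursor genes Nppa and Nppb were near or at 0 in PCs (0 to 1.85 CPM for Nppa, listed at 0 in all 6 mice for Nppb). The precursor gene Nppc was at 7.44 to 13.8 CPM in SCA1 and 2.41 to 8.08 CPM in WT mice, with a log2 fold change of 0.55 ± 0.45 (SE, edgeR adjusted p = 0.978). Npr1, the receptor that answers atrial natriuretic peptide with cyclic GMP, was at 5.93, 2.78 and 8.59 CPM in the 3 SCA1 mice and at 24.1, 19.3 and 18.8 CPM in the 3 WT mice. The groups did not overlap, and the log2 fold change was -1.95 ± 0.40 (SE, edgeR adjusted p = 0.154), with an adjusted p of 0.0472 in DESeq2. Pcsk6, a convertase that activates corin, was at 487, 527 and 643 CPM in the SCA1 and at 707, 784 and 1003 CPM in the WT mice, again without overlap (-0.77 ± 0.23, edgeR adjusted p = 0.379). Furin, another convertase, had -0.61 ± 0.28 and Npr2, the receptor of C-type natriuretic peptide, 0.74 ± 0.45 (adjusted p = 0.771 and 0.918). Npr2 did not overlap between the groups in the opposite direction, with 11.5 to 14.9 CPM in SCA1 and 2.41 to 8.95 CPM in WT mice.

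Around Lgr5, 4 of 11 listed genes passed the filter and all 4 had a fitted fold change below 0, with a median of -0.37. Znrf3, the ubiquitin ligase that R-spondins and LGR receptors remove from Wnt receptors, was at 81.4, 125 and 99.6 CPM in the SCA1 mice and at 131, 145 and 253 CPM in the WT mice. These groups did not overlap either, and the log2 fold change was -0.98 ± 0.25 (SE, edgeR adjusted p = 0.264). The paralog Lgr4, at 75.9 to 98.8 CPM in SCA1 and 85.8 to 99.6 CPM in WT mice, had -0.20 ± 0.22, the R-spondin Rspo3 -0.54 ± 0.25 and the Wnt co-receptor Lrp6 -0.01 ± 0.27.

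Around Bcar1, 6 of 11 genes passed the filter, with a median of -0.17, and the focal adhesion kinase gene Ptk2 had a log2 fold change of -0.14 ± 0.19 (SE). The phosphatase gene Ptpn12 was at 57.4 to 70.4 CPM in SCA1 and 32.5 to 51.2 CPM in WT mice, higher without overlap, and had 0.40 ± 0.25 (SE, edgeR adjusted p = 0.937). Of 4 other CLIC genes only Clic4 passed, with 0.96 ± 0.78, and the paralog Fam107a had -0.40 ± 0.55 (SE, edgeR adjusted p = 0.978 and 0.999). None of 6 listed transmembrane mucins and none of 9 type II transmembrane serine proteases, the class of corin, passed the filter. In the 10 other cell types, 203 tests of these genes gave no call by edgeR, beside 0.0% to 0.00917% of all genes, and 7 had an unadjusted p below 0.05, beside 0.807% to 2.22% of all genes.

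The genes whose levels ran most like those of the 6 were looked up over 33 sums, 11 cell types in each of 3 WT mice, among 8080 genes with a mean of at least 10 CPM in WT PCs. They were B4galnt3 (Pearson's r = 0.90), D430036J16Rik (0.88) and Gm28876 (0.88) for Muc3a, and Homer3 (0.80), Zfand4 (0.78) and Paxbp1 (0.78) for Fam107b. For Corin they were its antisense gene Gm20647 (0.94), Gm43244 (0.93) and Csta1 (0.93), and for Clic6 Gm11906 (0.93), Dlx4os (0.92) and again Gm20647 (0.90). They were Fam78b (0.88), Ptprr (0.84) and Lrp8 (0.82) for Lgr5, and Cep76 (0.86), Erg28 (0.85) and Gm30313 (0.84) for Bcar1. The sums of one mouse share a library, so that these values are descriptions. The mean of B4galnt3, an acetylgalactosaminyltransferase, was 17.1 CPM in PCs of SCA1 and 41.1 CPM in those of WT mice, and that of Homer3, a scaffold of metabotropic glutamate receptors at PC synapses, was 373 and 589 CPM, while Fam78b was at 184 and 192 CPM.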

How the data were processed

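The authors deposited, for each mouse, UMI counts per gene and nucleus as whole numbers that were not normalized, with a Seurat cluster and a SingleR label for each nucleus. Per the labels and the study's methods, reads were aligned with Cell Ranger 5.0.1 to the mm10 reference, to which the locus of human ATXN1 had been added, introns were included in the counting, and debris was removed with DIEM at a minimum of 1000 UMIs (3000 UMIs for the first run). The submitters' processing notes also name Cell Ranger 4.0.0 and 6.0.1, R 4.1.0 and Seurat 4.0.4. The tables hold fewer nuclei than the study gives after this cleaning, and no doublet caller was run here. DIEM's higher minimum leaves deeper nuclei in the first run.

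Counts were summed per mouse and SingleR label. Levels are plain CPM of these sums. edgeR 4.0.16 (R 4.3.3) was fitted across all genes of each cell type with its quasi-likelihood test. The model had a batch and a genotype term, with TMM factors, low genes were removed by filterByExpr (at least 10 counts in enough libraries and 15 in total), and a gene was called if its Benjamini-Hochberg adjusted p did not exceed 0.05. Comparisons with granule neurons had mouse and cell type as terms. The labels name no batch, which was taken from how their libraries are numbered (SCA1 mouse 1 and WT mouse 1 against the other 4 mice). The paper's own test takes nuclei as replicates and was not run. The fits were tested on simulated data with known changes.

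Alternatives were DESeq2 1.42.0, RLE factors, no filter, labels that were also the most frequent of their Seurat cluster, the replicate number as a block, a fit without batch, nuclei with 3000 UMIs or more, each mouse left out in turn and, for the split by human ATXN1, thinning to 5000 UMIs. Python 3.11.15, numpy 2.4.6, pandas 2.3.3, scipy 1.17.1 and matplotlib 3.10.9 were used. The genes, the lists, the markers and the tests were chosen with earlier results of these data known. Genes named are the 6, the listed relatives, the markers and, for each of the 6, the 3 genes with the highest r. Replicate numbers came from the labels, which do not say that they mark a shared litter or day. In granule neurons the deviations of mice with the same number correlated at 0.87, 0.26 and 0.78 (numbers 1, 2 and 3), all over 0.1, and in PCs at 0.67, 0.07 and 0.50. The other types with all 3 over 0.1 were velate astrocytes and Pvalb-Cadm1, Pvalb-Nefh and Pvalb-Rab3b interneurons. A number was assumed to pair mice in granule neurons and these types only. The deviations were not corrected for batch, and mouse 1 of each genotype was taken to be alone in its batch. A difference between batches could by itself give such correlations, so that they cannot show pairing.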

Additional observations from a re-analysis of the deposited data

How the results depend on the processing

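The 6 fold changes in PCs kept their direction and moved by less than the spread between mice under all 13 alternatives, from -2.20 to -1.63 for Muc3a, -1.90 to -1.34 for Fam107b, -1.53 to -0.73 for Corin, -1.90 to -1.52 for Clic6, -2.00 to -1.63 for Lgr5 and -1.32 to -1.13 for Bcar1. In granule neurons none of the 6 was called under these alternatives, the lowest adjusted p being 0.410 with the replicate block. The number of genes called in PCs, 0 as reported, was 66 with DESeq2, 8 with RLE factors, 223 with no filter, 1 where label and cluster agreed, 172 with the replicate block, and 0 to 6 with a mouse left out (6 without WT mouse 2, 2 without WT mouse 3). In granule neurons it was 1 as reported, 14 with DESeq2, 2 with no filter, 0 with no batch term, 6 with the replicate block and 0 to 1 with a mouse left out (0 without SCA1 mouse 1 or WT mouse 2). In the 9 other types together it was 1 as reported, 3 with DESeq2, 121 with no filter, 0 where label and cluster agreed (in 5 of the 9 types), 0 with no batch term, 15 with the replicate block and 0 to 15 with a mouse left out (6 without SCA1 mouse 1, 15 without SCA1 mouse 2, 6 without WT mouse 1 and 0 without WT mouse 2). The cause of these differences was not tested.

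Of the relatives in PCs, DESeq2 called 1 (Npr1), no filter called 3 (Npr1, Znrf3 and Tmprss9) and the replicate block called 3 (Npr1 at an adjusted p of 0.0239, Pcsk6 at 0.00905 and Znrf3 at 0.0440), although numbers were not taken to pair mice in PCs. Among the tests against granule neurons, 13 were called where label and cluster agreed, of 16 that could be made. In granule neurons the fold change of Clic6 turned to 0.30 with no batch term and to 0.17 and 0.18 without SCA1 mouse 2 and without WT mouse 3, with a range of -1.54 to 0.18 over the mice left out, and that of Lgr5 turned to 0.22 and 0.30 without the same mice (-0.23 to 0.30). That of Fam107b in Pvalb-Chrm2 interneurons against granule neurons turned to 0.025 and 0.038 without SCA1 mice 2 and 3 (-0.22 to 0.038). The ratio of hATXN1+ to hATXN1- levels after thinning was 0 for Muc3a (from no UMI, which allows up to 0.44), 0.17 for Fam107b, 0.50 for Bcar1, 0.13 for Corin, 0.64 for Clic6 and 0.27 for Lgr5, and with an SCA1 mouse left out it ran from 0.20 to 0.68 for Clic6, 0.05 to 0.13 for Corin and 0.11 to 0.27 for Lgr5. PCs limit the precision, with 29 to 76 nuclei a mouse, and the hATXN1+ levels rest on 4 UMIs for Muc3a, 12 for Lgr5 and 14 for Corin. With 1 library per mouse, differences between mice and between libraries cannot be told apart.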
